A study of Mus musculus with 6 samples.

Results

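Transcripts of 9 nuclear envelope genes were followed in mouse peripheral blood neutrophils: the lamin genes Lmna, Lmnb1 and Lmnb2, the lamin B receptor gene Lbr, the SUN domain genes Sun1 and Sun2, the LEM domain genes Emd and Tmpo, and Banf1. They were taken by symbol from the 47561 gene and transcript features listed in each library, and 9 of 9 were found. The set was selected on the measured difference in Lmnb1 FPKM between AVP and control libraries, with the values of the other 8 genes in the same contrast already known, so what separates the groups in these 9 genes is given as a description with no test. The libraries came from total RNA of neutrophils sorted by flow cytometry, in 3 control samples (treatment given as negative control) and 3 samples taken after AVP had been administered for 30 days. The labels do not expand AVP, their genotype field repeats the group name, and the sources used here give no strain, age, sex, dose or vehicle. Whether replicates are different animals is not said, so the spread between them may be technical.

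The nuclear lamina is a meshwork of lamin filaments under the inner nuclear membrane that gives the nucleus its stiffness and anchors silent chromatin. A-type lamins come from Lmna and B-type lamins from Lmnb1 and Lmnb2. LBR, a membrane protein that is also a sterol reductase, binds B-type lamins and heterochromatin, and its loss leaves granulocyte nuclei with too few lobes. SUN proteins span the inner membrane and couple the lamina to the cytoskeleton through nesprins. Emerin (Emd) and the lamina-associated polypeptide 2 proteins (Tmpo) carry a LEM domain, which binds the small DNA-bridging protein BAF (Banf1). Mature neutrophils are known for a lobed, easily deformed nucleus with little lamin A.

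The stretches before the transcription starts of Emd and Tmpo are shown because these genes encode partners of the same protein, BAF, and stood on opposite sides of the group comparison. Each is the 250 bases before the most upstream start listed for the gene in the RefSeq table of GRCm38.p6, on the gene's own strand, for Emd chrX:74254437-74254686 (plus strand) and for Tmpo chr10:91171620-91171869 (minus strand). Capitals mark the CCAAT box, searched as CCAAT on both strands, a promoter element found in many genes.
Emd: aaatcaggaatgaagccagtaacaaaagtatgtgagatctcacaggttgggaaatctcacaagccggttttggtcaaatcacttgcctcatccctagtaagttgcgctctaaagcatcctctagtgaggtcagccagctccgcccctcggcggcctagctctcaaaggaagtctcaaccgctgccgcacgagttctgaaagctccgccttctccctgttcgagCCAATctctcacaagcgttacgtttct
Tmpo: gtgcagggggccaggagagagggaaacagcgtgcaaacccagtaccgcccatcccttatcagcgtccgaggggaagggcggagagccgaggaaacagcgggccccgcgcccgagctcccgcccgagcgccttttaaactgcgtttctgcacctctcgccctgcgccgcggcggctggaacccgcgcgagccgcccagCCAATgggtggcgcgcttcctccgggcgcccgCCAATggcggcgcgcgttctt
The Emd stretch holds the box once, beginning 27 bases before the start, and the Tmpo stretch holds it 2 times, beginning 53 and 21 bases before the start. The GC content is 51.2% for Emd and 70.8% for Tmpo. Tmpo has another start in the table, further downstream, whose window holds no CCAAT box and has a GC content of 46.0%. Both Tmpo starts lie inside the span of the gene given below, whose end on the upstream side is further out.

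Of the 9 genes, 8 matched the promoter table, with 13 windows of 250 bases among them. The CCAAT box occurred in 8 of these 13 windows and in 33.8% of all 32851 windows of the same length in the table. Lbr (68 and 28 bases before the start), Sun2 (85 and 41 bases) and the upstream start of Sun1 (97 and 15 bases) have 2 matches each, as Tmpo does. An AP-1 motif, searched as TGANTCA, occurred in the window of Lbr, 48 bases before the start, and in 6.75% of all windows. The motifs for the NF-kB core (GGNNTTTCC, 4.93% of all windows), CRE (TGACGTCA, 1.55%) and E2F (TTTGGCGC, 0.417%) had no match in the 13 windows, which says only that these letters are not there. ETS (CCGGAAGT, 2.88% of all windows) and GC box (GGGGCGGGG, 10.4%) motifs matched in 1 and 3 of the 13 windows. All 7 motifs were searched on both strands, and these letters do not contain each other.

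The libraries summed to 755140 to 829725 FPKM (fragments per kilobase and per depth), at an estimated 14200000 to 16900000 fragments. All 8 neutrophil markers, among them S100a8, S100a9, Csf3r and Ly6g, were above 0, and together they took 21.4% to 24.8% of the total FPKM in controls and 19.9% to 24.3% after AVP. Of the 8, 1 had all AVP libraries above all controls and 1 had all below. Among all genes tested, 6.39% and 7.63% did. Markers of other blood cells differed between libraries: the 7 erythroid genes took 13.6% to 19.0% of the total FPKM in controls and 15.1% to 29.2% after AVP, highest in AVP replicate 1. The 7 basophil markers summed to 337 FPKM in AVP replicate 1 and to at most 29.3 FPKM elsewhere. In AVP replicate 3 the 9 monocyte markers were lowest (980 FPKM, against 2512 to 6157 FPKM in the other libraries) and the 8 T cell markers highest (115 FPKM, against 0.424 to 13.7 FPKM), with Cd3e, Cd4 and Cd8a listed at 0 in all 6 libraries.

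Among the lamins, nearly all of the listed FPKM was Lmnb1. Lmnb1 (gene identifier 16906, chromosome 18) stood at 7.60, 7.37 and 18.8 FPKM in control replicates 1 to 3, and AVP replicates 1 to 3 stood at 108, 106 and 118 FPKM. The lowest AVP library was several times above the highest control, and control replicate 3 was set apart from the other controls by its higher level. The control mean was 11.3 ± 6.56 FPKM and the AVP mean 111 ± 6.50 FPKM (SD, n = 3), a ratio of 9.85. On the log2(FPKM + 1) scale, after scaling of the libraries, the fitted log2 fold change was 3.39 (SE 0.42), and 13 of the 8523 genes tested, Lmnb1 included, had one at least as high. In RNA from a sorted population, a change in the RNA of each cell and a change in which cells were sorted cannot be told apart.

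Lmna, the source of lamins A and C, was listed at 0.675, 0 and 0 FPKM in controls, while the AVP libraries had 0.464, 1.79 and 3.72 FPKM. The groups overlapped, and the gene reached 1 FPKM in AVP replicates 2 and 3 only, so it did not pass the filter on low values. Lmnb2, which encodes lamin B2, was listed at 0 in all 6 libraries. An exact 0 in FPKM can be a failed estimate, and the lamin shares hold only if this one is not. With Lmnb2 taken at 0, Lmnb1 made up 91.8% to 100% of the lamin FPKM in controls and 97.0% to 99.6% after AVP. On these values its share was near its ceiling in every library.

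**Figure D1:**
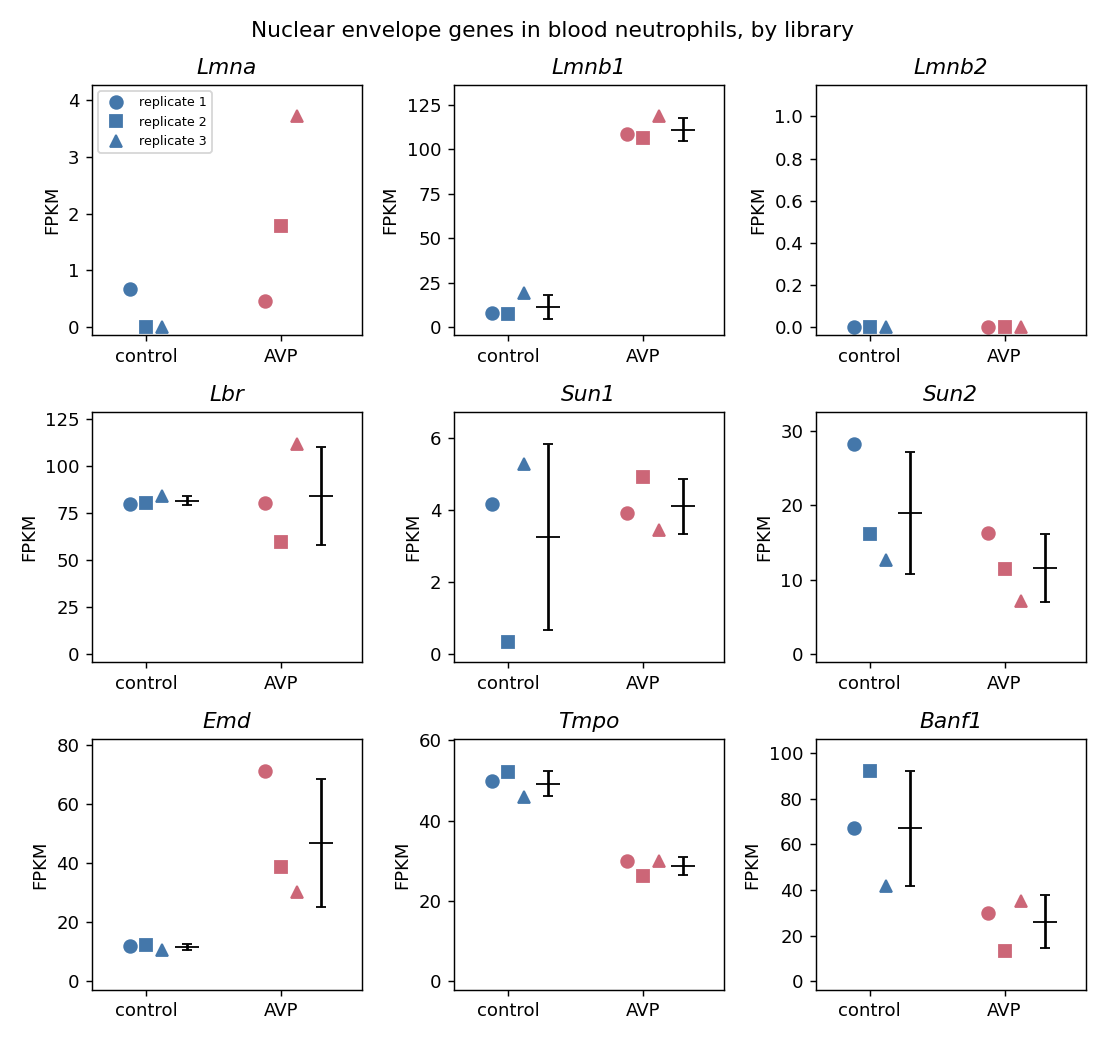
FPKM of the 9 genes (y axes, separate scales) in the 3 control (blue) and 3 AVP (red) libraries, with symbols for the replicate number; black marks and bars are the mean and SD (n = 3), left out for Lmna and Lmnb2, which are listed at 0 in some or all libraries. All AVP libraries lie above all controls for Lmnb1 and Emd and below them for Tmpo and Banf1.

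Lbr was at the same mean level in both groups but varied more after AVP. It stood at 80.1, 80.6 and 84.4 FPKM in controls, a narrow range, and after AVP at 80.6, 59.8 and 112 FPKM, on both sides of the controls. The means were 81.7 ± 2.35 and 84.1 ± 26.3 FPKM (SD, n = 3), and the fitted log2 fold change was 0.08 (SE 0.31), with a sign that turned on the deposited scale (-0.0037), with libraries scaled to equal totals (-0.04) and without AVP replicate 3 (-0.14). LBR is a binding partner of lamin B1. The ratio of Lmnb1 to Lbr transcripts within a library, which no scaling affects, was 0.0949, 0.0914 and 0.223 in controls and 1.34, 1.78 and 1.06 after AVP. In each AVP library Lmnb1 exceeded Lbr, and in each control library it lay far below it.

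The SUN genes overlapped between the groups. Sun2 was at 28.3, 16.1 and 12.7 FPKM in the control libraries, and the AVP libraries had 16.3, 11.4 and 7.11 FPKM, where AVP replicate 1 lay above control replicates 2 and 3. Its fitted log2 fold change was -0.58 (SE 0.52). Sun1 was lower throughout, with 4.17, 0.347 and 5.27 FPKM in the control group and 3.93, 4.93 and 3.45 FPKM in the AVP group. Its fitted log2 fold change of 0.59 (SE 0.74) rested on control replicate 2, and without that library it was -0.09.

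Emd, which encodes emerin, was the other gene of the set with all AVP libraries above all controls. Emd (gene identifier 13726, chromosome X from 74254674 to 74261563 in GRCm38) had 12.1, 12.4 and 10.5 FPKM in the control libraries against 71.4, 38.7 and 30.3 FPKM in the AVP libraries. The controls lay close together, and the AVP libraries spread over more than the whole control level, with AVP replicate 1 highest. The means were 11.7 ± 1.03 and 46.8 ± 21.7 FPKM (SD, n = 3), a ratio of 4.01, and the fitted log2 fold change was 1.90 (SE 0.45). AVP replicate 1 was also the library with the highest erythroid share (29.2% of the total FPKM) and the highest basophil marker sum. Without it the log2 fold change of Emd was 1.50 (SE 0.44). The part of red cells and basophils in the level of Emd was not tested. In GENCODE M21 the transcribed pseudogene Gm14686 shares 343 exon bases (13.6%) with Emd on the same strand, and how fragments from these bases were assigned is not stated.

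Tmpo was lower in every AVP library than in every control, with little spread inside either group. Tmpo (gene identifier 21917, chromosome 10 from 91147571 to 91181752 in GRCm38) had 50.0, 52.0 and 45.8 FPKM in the control group, compared with 29.9, 26.1 and 30.0 FPKM in the AVP group. The means were 49.3 ± 3.17 and 28.7 ± 2.20 FPKM (SD, n = 3), so that the control mean was 1.72 times the AVP mean, and the fitted log2 fold change was -0.68 (SE 0.31). The files give a single value for Tmpo, so its splice forms, some of which span the membrane and some of which do not, were not separated.

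Banf1, the gene of BAF, was also lower in every AVP library, but its groups came closer to each other. Banf1 (gene identifier 23825, chromosome 19 from 5364633 to 5366876 in GRCm38) had 67.3, 92.0 and 41.7 FPKM in control replicates 1 to 3 and 29.8, 13.3 and 35.3 FPKM in AVP replicates 1 to 3. Control replicate 3 and AVP replicate 3 were the nearest pair. The means were 67.0 ± 25.2 and 26.1 ± 11.4 FPKM (SD, n = 3), a control mean 2.56 times the AVP mean, and the fitted log2 fold change was -1.28 (SE 0.49), which was -0.82 without AVP replicate 2. In the GENCODE M21 annotation Eif1ad, on the opposite strand, shares 428 exon bases (28.6%) with Banf1, and the kit is not stated to keep the strand, so fragments from these bases cannot be assigned. Eif1ad itself had 13.2, 5.96 and 0.437 FPKM in the controls and, with AVP, 4.46, 21.7 and 0.168 FPKM. Within the AVP group its order was the reverse of that of Banf1, and within the controls it was not. The part of the shared bases in the level of Banf1 was not tested.

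The 8 B cell markers, of which none is listed at 0, summed to 7422, 8777 and 6468 FPKM in controls and to 2021, 6659 and 4914 FPKM after AVP, with AVP replicate 2 above control replicate 3. In 3 of the 8 all AVP libraries lay below all controls, where 7.63% of all genes tested did. Their part in the values of Tmpo and Banf1 was not tested.

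**Figure D2:**
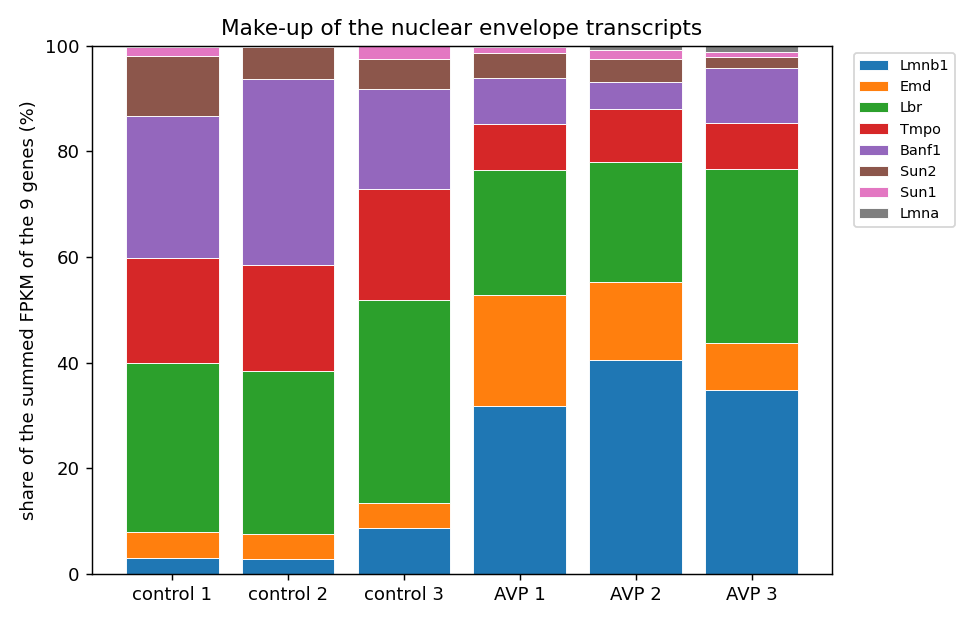
Share (%) of the summed FPKM of the 9 genes taken by each gene (stacked bars) in each library; Lmnb2 is at 0. Lmnb1 takes 2.83% to 8.60% in controls and 31.8% to 40.5% after AVP, and Banf1 and Tmpo take smaller shares after AVP. A larger share for Lmnb1 leaves less of the sum for the other genes together.

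The order of the genes changed with the group. In controls the means ran from Lbr (81.7 FPKM) through Banf1 (67.0 FPKM), Tmpo (49.3 FPKM), Sun2 (19.0 FPKM), Emd (11.7 FPKM) and Lmnb1 (11.3 FPKM) to Sun1 (3.26 FPKM). Banf1, which ranged from 41.7 to 92.0 FPKM, overlapped with both Lbr and Tmpo, and Lmnb1 overlapped with both Emd and Sun2, whose own ranges lay next to each other (10.5 to 12.4 and 12.7 to 28.3 FPKM). After AVP, Lmnb1 came first (111 FPKM), followed by Lbr (84.1 FPKM), Emd (46.8 FPKM), Tmpo (28.7 FPKM), Banf1 (26.1 FPKM), Sun2 (11.6 FPKM) and Sun1 (4.10 FPKM). There Lmnb1 and Lbr overlapped because Lbr reached 112 FPKM in AVP replicate 3, and so did Lbr and Emd, Emd and Banf1, Tmpo and Banf1, and Banf1 and Sun2, while Emd stayed just above Tmpo. Emd and Tmpo changed places: the Emd to Tmpo ratio was 0.242, 0.239 and 0.229 in controls and 2.39, 1.48 and 1.01 after AVP. The Lmnb1 to Tmpo ratio varied least within the AVP group among the 8 ratios computed, at 3.63, 4.07 and 3.95, against 0.152, 0.142 and 0.412 in controls. Summed over the 9 genes, the FPKM were 219 to 261 in controls and 262 to 341 after AVP. Lmnb1 took 2.83% to 8.60% of this sum in controls and 31.8% to 40.5% after AVP, while Tmpo took 19.9% to 20.9% and then 8.77% to 9.96%, and Banf1 19.0% to 35.3% and then 5.08% to 10.4%. A larger share for Lmnb1 leaves less of the sum for the other genes together. Lbr, at the same mean level in both groups, took 30.9% to 38.5% and then 22.8% to 32.9%.

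Of the 9 genes, 7 passed the filter of 1 FPKM in at least 3 libraries, and in 4 of them the groups did not overlap, with 2 higher (Lmnb1 and Emd) and 2 lower (Tmpo and Banf1) after AVP. Among all 8523 genes tested, the groups did not overlap in 14.0%, with 6.39% higher and 7.63% lower. Since the genes were chosen with this contrast known, nothing is read from their count. In the limma fit over all genes 0% were called in either direction at the 0.05 threshold on adjusted p (0 genes). With no adjustment, p under 0.05 was reached by 400 genes that were higher and 322 that were lower, a split that was 316 and 394 with libraries scaled to equal totals.

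**Figure D3:**
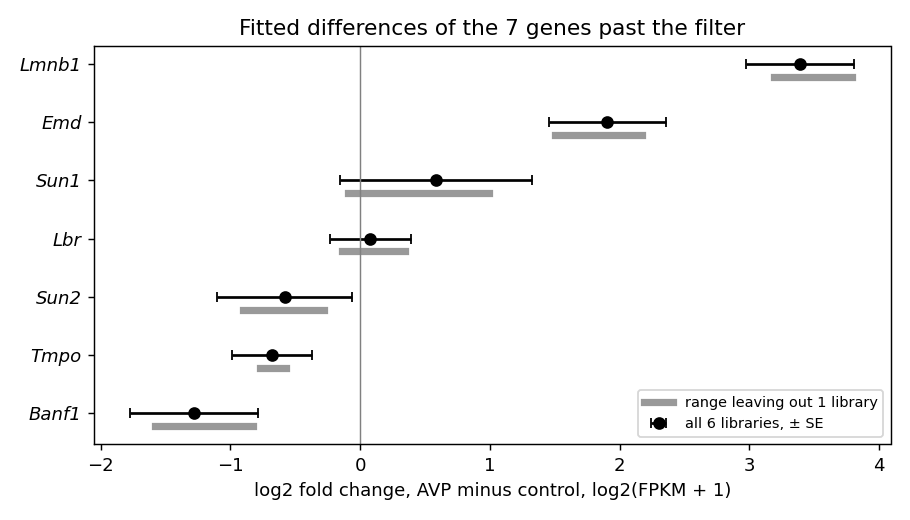
Fitted log2 fold change (x axis, AVP minus control, on the log2(FPKM + 1) scale) of the 7 genes past the filter; points and bars are the fit to all 6 libraries with its SE, and grey bars span the values with each library left out in turn. Lmnb1 lies at 3.39 and Emd at 1.90, Tmpo and Banf1 lie below 0 throughout, and the grey bars of Lbr and Sun1 cross 0.

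Over the 6 libraries, the genes whose profile lay closest to that of Lmnb1 were found among tested genes with a mean of at least 5 FPKM, by the root mean square difference of scaled log2 values after each gene's mean was subtracted. Predicted genes, pseudogenes and antigen receptor segments were left out, with 4530 candidates remaining. The 6 closest were Acod1 (a difference of 0.32 log2 units), Ets2 (0.33), Trib1 (0.40), Nfkbia (0.45), Plk2 (0.47) and Fosb (0.52). Acod1, which encodes the enzyme that makes itaconate in activated myeloid cells, had 6.41, 4.03 and 15.6 FPKM in the controls, against 64.0, 50.1 and 97.3 FPKM with AVP. The transcription factor gene Ets2 was at 15.8, 11.5 and 23.2 FPKM and at 164, 98.8 and 156 FPKM. In both, as in Lmnb1, control replicate 3 was the highest control and AVP replicate 2 the lowest AVP library. Such likeness follows from how these genes were chosen and is no separate result. Nfkbia, the gene of the NF-kB inhibitor IkB alpha, shared the high control replicate 3 (382 FPKM, against 140 and 153 FPKM), and Fosb, an AP-1 subunit gene, did not (2.15 FPKM, against 3.07 and 2.02 FPKM).

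**Figure D4:**
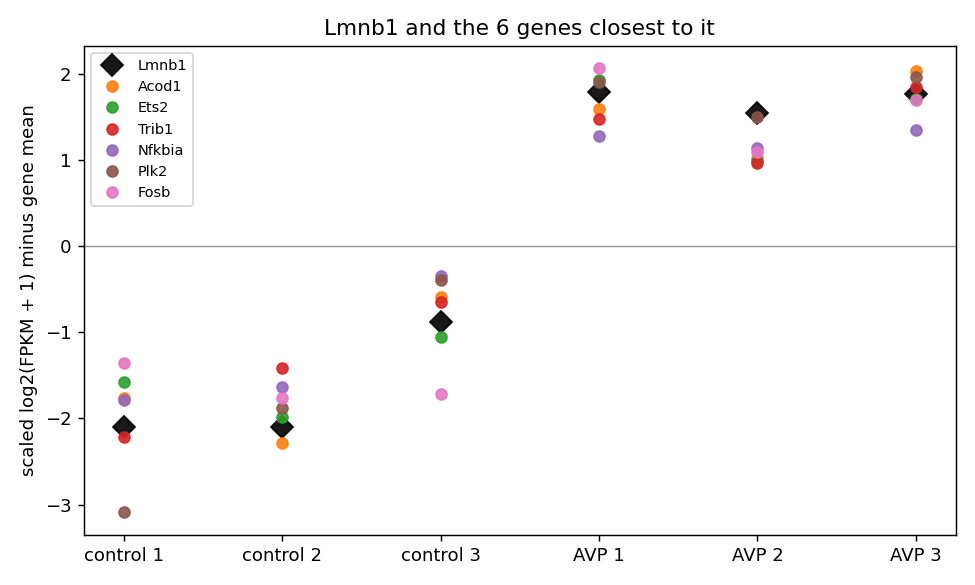
Scaled log2(FPKM + 1) minus the gene's mean (y axis) in each library (x axis) for Lmnb1 (black diamonds) and the 6 genes closest to it (coloured circles). All 7 genes lie below 0 in the 3 controls and above 0 in the 3 AVP libraries, and Lmnb1 is highest among the controls in replicate 3. The 6 genes were chosen for their likeness to Lmnb1, so the shared split follows from the choice.

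Other genes of the nuclear envelope and of processes tied to it were read from 9 lists with 132 genes found and 75 tested. By limma, 0 of the 75 passed an adjusted p of 0.05 over all genes in either direction, the background being 0%. The groups did not overlap in 10 (13.3%), 8 of them higher and 2 lower after AVP, against 14.0% of all genes tested. Their median log2 fold change was 0.09, against -0.04 for all genes tested. The named genes of these lists had adjusted p by limma from 0.137 to 0.986, and none of their values is a call.

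The LINC complex joins SUN proteins to nesprins. No nesprin gene and no SUN gene of this list passed the filter on low values. The 12 tested genes are other partners of the complex and of the inner nuclear membrane. Of these 12, 9 had a fold change above 0 and 3 below. The median was 0.31, against -0.04 for all genes tested. The largest difference of the list was downward, -1.72 in a gene whose groups overlapped. In 3 of the 12, all AVP libraries lay above all controls, against 6.39% of all genes tested. Tmem43, an inner membrane protein known to bind emerin and lamins, had 34.3, 30.4 and 17.7 FPKM in the control libraries against 97.3, 45.5 and 58.9 FPKM in the AVP libraries, and a fitted difference of 1.32 on the log2 scale (SE 0.44). As with Emd, AVP replicate 1 was its highest library. Tor1aip2, a torsin activator of the endoplasmic reticulum, was at 3.35, 6.80 and 9.35 FPKM and at 17.3, 10.3 and 18.5 FPKM. Cnep1r1, a subunit of the phosphatase that controls lipin at the envelope, differed least of the 3 (0.51 on the log2 scale, SE 0.45). Tor1aip1 (LAP1), which binds lamins, overlapped between the groups (-0.23, SE 0.44). Sun3, Sun5, Spag4, Ankle1 and Plpp7 were listed at 0 in all 6 libraries.

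The nuclear pore list had 21 tested genes with a median of 0.17, of which 1 was separated upward and 1 downward, the shares over all genes tested being 6.39% and 7.63%. Nup98, a pore protein that also acts on transcription inside the nucleus, had 4.96, 7.54 and 4.78 FPKM in the controls and, close together, 15.8, 14.5 and 14.3 FPKM in the AVP libraries. Nup88 was at 10.7, 35.8 and 13.4 FPKM and at 6.43, 1.44 and 8.75 FPKM, and its controls were spread widely. Sec13, which serves both the pore and vesicle coats, ranged from 0.970 to 52.6 FPKM within the controls alone.

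The enzymes that mature lamins by farnesylation and cleavage had 2 tested members, Fnta (log2 fold change 0.06, SE 0.55) and Zmpste24 (-0.99, SE 0.74), and both overlapped between the groups. In the 8 tested heterochromatin partners the median was -0.60, with 3 above 0 and 5 below. Of the 8, 0 were separated, against 14.0% of all genes tested. The largest difference of the list was upward, 2.21 in a gene whose groups overlapped. Cbx3, an HP1 protein of the kind that LBR binds, had 81.1, 52.3 and 64.6 FPKM in the control group and 48.4, 44.4 and 64.3 FPKM in the AVP group. Its relative Cbx1 varied far more, from 13.4 to 48.2 FPKM in controls and from 2.49 to 24.8 FPKM with AVP.

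Of 8 tested kinases and proteases linked to lamina disassembly, cell death or chromatin release, 1 was separated upward (6.39% of all genes tested), and the median was 0.03. It was Cdk4, a kinase of the G1 phase, with 4.34, 0.305 and 2.38 FPKM in the controls against 11.95, 57.3 and 17.1 FPKM in the AVP libraries, a single AVP library lying far above the rest. Prkcd, a protein kinase C that can phosphorylate lamin B, differed by -0.37 on the log2 scale (SE 0.34), and Gsdmd, the pore-forming gasdermin D, by 0.21 (SE 0.37). The 11 tested ESCRT genes, whose products seal gaps in the envelope, had a median of -0.11, and 1 was separated downward, against 7.63% of all genes tested. Chmp2b was the separated one, with 32.1, 23.0 and 40.0 FPKM in the control group and 9.66, 14.4 and 22.9 FPKM in the AVP group, although scaling of the libraries made its groups overlap. Chmp2a, the most abundant, differed by -0.11 on the log2 scale (SE 0.25). Among enzymes of sterol synthesis, the pathway of LBR's reductase activity, Msmo1 was at 2.85, 3.80 and 0.206 FPKM and at 3.94, 14.9 and 9.94 FPKM, the nearest libraries almost touching, and Sc5d overlapped (-0.62, SE 0.69).

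**Figure D5:**
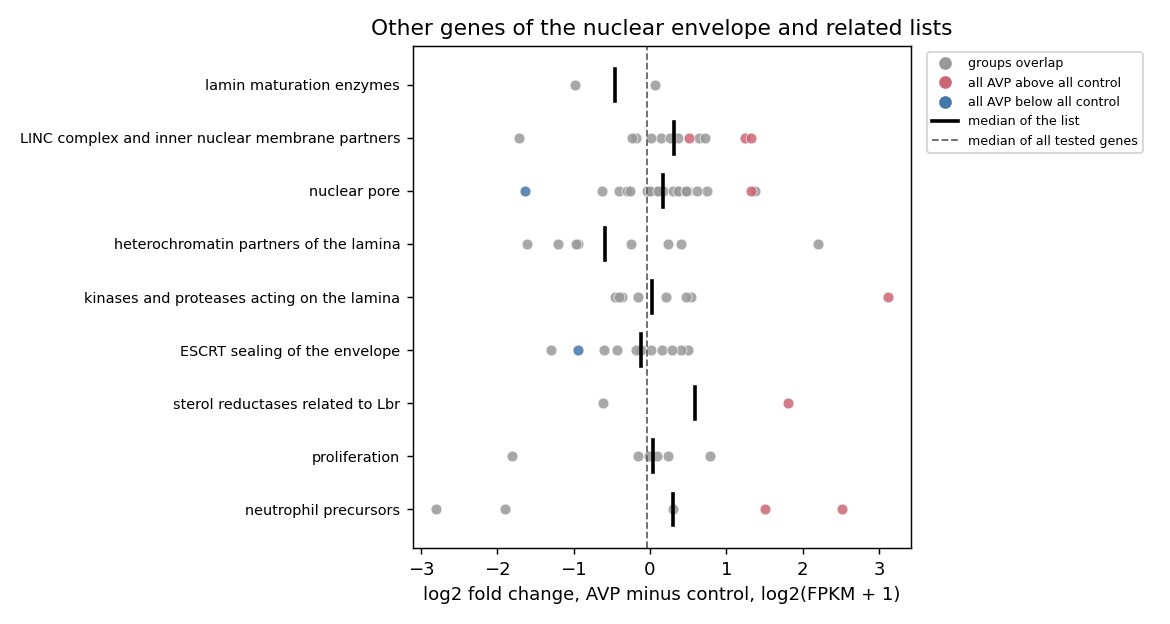
Fitted log2 fold change (x axis, AVP minus control) of each tested gene in the 9 lists (rows); red and blue points are genes with all AVP libraries above or below all controls, grey points overlap, black bars are list medians and the dashed line is the median of all tested genes (-0.04). The separated genes are few and lie in 6 of the 9 lists.

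Lmnb1 is known to be expressed in dividing and immature cells, so their markers are given beside it. Of 20 proliferation genes, 6 passed the filter, with a median of 0.04, and 0 were separated between the groups, against 14.0% of all genes tested. Of the 6, 3 had a fold change above 0 and 3 below, and the largest difference was downward (Tubb5, -1.80). Cdk1 was listed at 0 in all 6 libraries. Hmgb2, a chromatin protein abundant in dividing cells, had 238, 210 and 173 FPKM in the controls and 171, 215 and 192 FPKM with AVP, and Pcna, the replication clamp, was at 57.6, 36.5 and 11.0 FPKM and at 49.5, 37.6 and 57.9 FPKM. Of 12 genes of neutrophil precursors, Mpo, Elane, Ctsg and Ms4a3 were listed at 0 in all 6 libraries, and of the 5 tested, 2 were separated upward, against 6.39% of all genes tested. Lcn2, a secondary granule protein, had 236, 306 and 475 FPKM in the control libraries against 814, 1019 and 812 FPKM in the AVP libraries. Ngp, the neutrophilic granule protein, was listed at 5.41, 0 and 13.6 FPKM and at 24.1, 39.6 and 13.9 FPKM, while Chil3 overlapped widely (28.8, 24.2 and 238 FPKM, and 4.72, 78.4 and 0 FPKM). The fitted log2 fold change of Chil3 was the largest of the list and downward (-2.81, SE 1.51). The other gene below 0, whose groups overlapped as well, stood at -1.89. The part of dividing cells, and that of the granule genes, in the level of Lmnb1 was not tested.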

How the data were processed

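Per the labels' protocols, TRIZOL-extracted RNA went into TruSeq libraries for paired-end sequencing. Per the submitters' processing notes, the mm10 build, HISAT2 2.1 and featureCounts 1.6.4 were used, next to bcl2fastq 2.19, DESeq2 2.11.40.6 and cutadapt 1.16.5, with no role stated for any. What the authors deposited is taken to be FPKM from their properties, since the files do not name a unit. Depth was estimated from the value that 1 fragment adds to pseudogenes.

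Of 47561 features, 44705 matched a RefSeq symbol (GRCm38.p6, the assembly of mm10). The 8523 genes that reached 1 FPKM in 3 or more libraries were scaled with a trimmed mean of log ratios and fitted as log2(FPKM + 1) with limma 3.58.1 in R 4.3.3, with an intensity trend, no replicate term and Benjamini-Hochberg adjustment over all genes. Printed FPKM are unscaled. Near-identical transcripts were sought with BLAST 2.17.0 in GENCODE M21, at 95% identity or more over 200 bases or more. Only the longest protein-coding transcript of each gene was searched, and none was found beyond exons shared with Eif1ad and Dnah14. Other transcripts of the genes were not covered, and Gm14686, which shares exon bases with Emd, was not among the matches.

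The members, gene lists, motifs and alternatives were chosen with earlier results of these data known. The rule for naming other genes took the 2 with the highest mean from each list and up to 3 whose groups do not overlap and whose mean reaches 5 FPKM, by the largest difference, plus the 6 genes closest to Lmnb1. Other lists of blood cell markers were eosinophil (5 genes, 9.83 to 115 FPKM summed per library), dendritic cell (5, 0 to 5.05 FPKM), NK cell (6, 3.18 to 48.2 FPKM) and platelet genes (6, 84.7 to 212 FPKM).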

Additional observations from a re-analysis of the deposited data

How the results depend on the processing

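The comparison was repeated under 17 alternatives, 6 of which left out a library. Genes called higher at an adjusted p under 0.05 by limma numbered 0 with all libraries, 11 with a filter of 10 FPKM in 3 libraries, 3 with a pseudocount of 5, 1 with no intensity trend, and 0 to 4 with each library left out (4 without control replicate 3, otherwise 0); 0 were called lower in any. With the replicate number as a block 0 were higher and 0 lower. The deviations of same-numbered libraries from their group means had correlations of 0.02, -0.01 and -0.04 over the tested genes. Noise in single genes can hide a shared part, so these values do not settle whether the numbers pair libraries. All 118 recomputed log2 fold changes of the 7 tested members moved by less than the spread between replicates. That check is weak, because leaving out 1 of 3 libraries can hardly move a difference by more than this spread. The replicate block, robust moderation and the fit with no intensity trend cannot change the difference in this design. The sign turned under 3 alternatives for Lbr and 1 for Sun1. The log2 fold changes ranged from 2.97 to 3.79 for Lmnb1, 1.50 to 2.18 for Emd, -0.79 to -0.57 for Tmpo, -1.58 to -0.82 for Banf1, -0.90 to -0.28 for Sun2, -0.14 to 0.35 for Lbr and -0.09 to 1.01 for Sun1, where Sun1 has no value under the 10 FPKM filter. Lmna and Lmnb2 did not pass the filter on low values, and an exact 0 in FPKM can be a failed estimate.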
